A study of Mus musculus with 39 samples.

Results

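The nuclear genes of oxidative phosphorylation were followed through the maturation of mouse photoreceptors with and without Nrl, the leucine zipper factor that precursors need to become rods. The set listed 56 genes by symbol: 22 subunits of complex I, 4 of complex II, 7 of complex III, cytochrome c, 10 subunits of complex IV, 5 of ATP synthase, 4 regulators and 3 enzymes of the citric acid cycle. A gene was measured when a probe set of the array was paired with its symbol alone, and where several qualified the brightest on average represented the gene. By this rule 55 of the 56 were measured, among 18193 genes on the array; Cox7b, a subunit of complex IV, was not analysed here.

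RNA came from retinal cells sorted for green fluorescent protein (GFP), amplified, and hybridised to 1 array per sample, 39 arrays in all. The 20 wild-type (wt) arrays held GFP-positive cells of Wt-Gfp mice, and the 19 knockout (ko) arrays held those of Nrl-ko-Gfp mice, at embryonic day 16 (E16), postnatal days 2, 6 and 10 (P2, P6, P10) and 4 weeks. Each group had 4 arrays except ko at E16, with 3. In both genotypes the Nrl promoter drove GFP, which marked rod precursors and rods in wt; in ko it marked cells that the labels describe as transformed into S-cone-like photoreceptors, so the genotypes also differ in the type of cell sorted. Nothing in the labels ties an array to an animal, so the p-values measure only the spread between these arrays. In such bulk samples, fewer cells of a type and less RNA per cell cannot be told apart.

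Oxidative phosphorylation passes electrons from NADH and succinate along complexes I to IV of the inner mitochondrial membrane to oxygen, and ATP synthase makes ATP with the proton gradient that this builds. Most subunits are encoded in the nucleus and the rest in the mitochondrial genome. Photoreceptors pack mitochondria into the ellipsoid of the inner segment and are among the cells with the highest demand for ATP. The coactivators Ppargc1a (PGC-1alpha) and Ppargc1b (PGC-1beta), which act through nuclear receptors such as the ERR family, the transcription factor NRF1 (gene Nrf1) and the mitochondrial transcription factor Tfam are known to raise the expression of these genes.

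Promoters are shown for 6 genes of different roles, 2 regulators, cytochrome c, 2 subunits of complex IV and 1 of ATP synthase, to set beside each other the motifs of this pathway that they hold. Each line gives the 180 bases before the annotated start of the gene in RefSeq (GRCm38.p6), read 5′ to 3′ in the direction of the gene, which lies on the minus strand in all 6 cases. Capitals mark matches to 1 of 4 motifs searched on both strands: the NRF1 core GCGCATGCG, the ETS site bound by GABP (CCGGAAGT), the ERR site TCAAGGTCA and the YY1 site AAGATGGCG. The windows were chr5:51567726-51567905 for Ppargc1a, chr10:71238045-71238224 for Tfam, chr6:50566570-50566749 for Cycs, chr5:115348959-115349138 for Cox6a1, chr9:79759854-79760033 for Cox7a2 and chr2:73911327-73911506 for Atp5g3.
Ppargc1a: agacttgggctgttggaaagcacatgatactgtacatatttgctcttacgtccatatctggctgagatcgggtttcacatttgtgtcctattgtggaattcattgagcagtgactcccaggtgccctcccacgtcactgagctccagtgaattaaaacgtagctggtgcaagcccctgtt
Tfam: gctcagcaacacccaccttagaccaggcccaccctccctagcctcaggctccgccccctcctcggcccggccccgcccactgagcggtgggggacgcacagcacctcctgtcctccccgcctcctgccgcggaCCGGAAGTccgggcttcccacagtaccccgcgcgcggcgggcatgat
Cycs: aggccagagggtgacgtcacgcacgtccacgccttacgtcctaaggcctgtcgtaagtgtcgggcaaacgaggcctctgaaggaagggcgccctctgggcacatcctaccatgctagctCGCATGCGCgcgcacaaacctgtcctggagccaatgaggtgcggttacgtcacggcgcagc
Cox6a1: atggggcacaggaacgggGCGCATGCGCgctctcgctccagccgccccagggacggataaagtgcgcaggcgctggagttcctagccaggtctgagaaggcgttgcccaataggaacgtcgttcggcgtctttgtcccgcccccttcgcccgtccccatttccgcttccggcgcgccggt
Cox7a2: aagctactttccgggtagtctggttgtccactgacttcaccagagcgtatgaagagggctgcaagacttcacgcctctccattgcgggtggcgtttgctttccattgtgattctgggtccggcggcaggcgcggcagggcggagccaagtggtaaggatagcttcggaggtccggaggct
Atp5g3: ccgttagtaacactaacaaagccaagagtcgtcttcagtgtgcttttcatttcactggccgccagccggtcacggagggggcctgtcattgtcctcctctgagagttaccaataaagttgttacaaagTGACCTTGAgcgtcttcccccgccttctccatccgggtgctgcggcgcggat
Tfam held the ETS site, Cycs held the NRF1 core on the reverse strand, Cox6a1 held overlapping NRF1 cores on both strands, and Atp5g3 held the ERR site on the reverse strand. Ppargc1a and Cox7a2 held none of the 4 strings in these 180 bases.

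Promoter windows of 250 bases before to 50 after the start were at hand for 43 of the 55 genes and were searched beside those of 17492 protein-coding genes. The NRF1 core was found in 4 of 43 (Ndufa8, Uqcrc1, Cycs and Cox6a1), or 9.3% against 2.61% of all promoters. The ETS site was also found in 4 (Ndufs3, Uqcrh, Cox8a and Tfam; 9.3% against 5.69%), the ERR site in 2 (Sdhd and Atp5g3; 4.65% against 0.377%) and the YY1 site in 5 (Ndufa9, Ndufc1, Ndufs4, Ndufs7 and Atp5j; 11.6% against 2.14%). No gene of the set held more than 1 kind of the 4 motifs. The spellings were chosen after several had been looked at, and a match is a description of letters, not a site in use.

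Nrl, the targeted gene, gave lower signals in ko throughout, and 1 ko array, described below, stood out. It lay between group means of 9.56 ± 0.82 (SD, n = 4) at E16 and 12.26 ± 0.05 (n = 4) at 4 weeks in wt on the log2 scale, and between 5.80 ± 0.42 (n = 3) and 6.52 ± 1.69 (n = 4) in ko. The mean log2 signal of 8 rod genes was 11.98 to 12.19 on the wt arrays at 4 weeks and 8.75 to 9.06 on the ko arrays, and that of 9 cone genes was 7.64 to 9.07 in wt and 10.79 to 11.20 in ko. Values spanned 4.03 to 14.48, and the mean of an array lay between 6.94 and 7.01, while the SD of the log2 values within an array ran from 1.34 to 1.80. The 3 lowest SDs were those of ko E16 replicate 3 (1.34), wt P10 replicate 2 (1.35) and ko P6 replicate 4 (1.40); ko P2 replicate 4 and wt P10 replicate 1 followed with 1.41 each. On ko 4 weeks replicate 2 the mean of 10 progenitor and cell cycle genes reached 9.97, where the lowest array of its group had 7.29, and Nrl, at 9.05, was the highest of any ko array. These 6 arrays stand apart from the rest, and counts are also given without them.

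The genes of oxidative phosphorylation were called more often for the array SD than for any contrast of stage or genotype, in the model as deposited or with the covariate. Within groups, all 55 had a positive slope on the array SD, with a median of 2.85 log2 units per unit of SD against -0.41 over all genes. Of these, 49 were called (limma, Benjamini-Hochberg adjusted p under 0.05 over all 18193 genes, the rule for every call below) and none was called negative, beside 35.7% of all genes called positive. The slope was 7.26 for Uqcrq, the steepest, and 0.03 for Sdhc, the flattest; it was 0.24 for Ppargc1a and 0.08 for Nrf1. On ko E16 replicate 3, the array with the lowest SD, the members lay 0.93 below their own means over all arrays, and the mean of the whole set varied with an SD of 0.64 among the 3 ko arrays at E16. The array SD is computed from the same values, the members included, and what sets it was not tested. Array means were nearly equal, and whether a wider spread by itself lifts the signals of bright genes was not tested. The set was not compared with other genes of like signal, so these slopes are not shown to be particular to it. For the whole set, the counts called in each contrast below are therefore also given from the same fit with the array SD as a covariate. Values of single genes come from the fit as deposited unless another is named, and many are given without the covariate. The array SD also differed between groups, with a mean from 1.51 in ko at P2 to 1.72 in wt at E16. The covariate is thus not independent of stage and genotype.

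**Figure D1:**
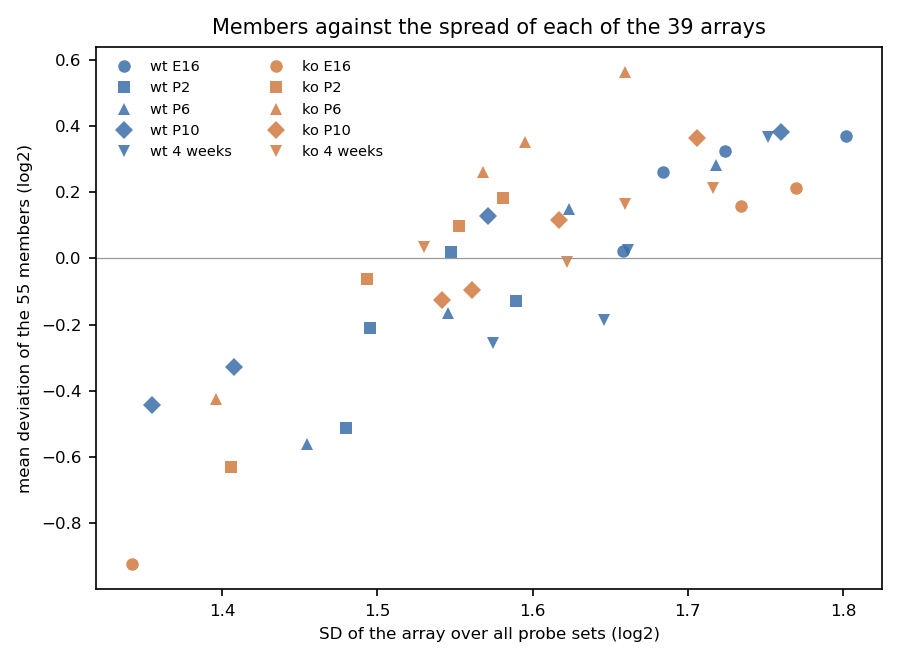
Mean deviation of the 55 oxidative phosphorylation genes from each gene's mean over all arrays (log2, y axis) against the SD of all log2 values of the array (x axis), with 1 point per array (39 arrays, wt blue, ko orange). Arrays with a low SD, such as ko E16 replicate 3 at 1.34, lie lowest, at a deviation of -0.93.

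Between E16 and 4 weeks in wt, 4 of the 55 genes rose and 12 fell, beside 18.3% of all genes called (1211 rose and 2116 fell). The members that fell were 6 complex I subunits, Sdhb, the complex IV subunits Cox5b, Cox6b1 and Cox7a2, the ATP synthase subunit Atp5o, and Tfam. Those that rose were Ppargc1a, Ppargc1b, Nrf1 and Sdha. The median change was -0.39 (log2) with 39 of 55 below 0, against 0.05 over all genes. The covariate gave 8 that rose and 13 that fell (27.8% of all genes called), with a median of -0.24, and without the 6 arrays 4 rose and 17 fell (25.5%). Of the 12 respiratory chain and ATP synthase genes among these calls 11 fell, while 3 of the 4 regulators rose, 1 of them (Nrf1) on a signal called absent by the authors. The mean of the progenitor and cell cycle genes was 9.58 to 10.14 on the wt arrays at E16 and 7.40 to 7.69 at 4 weeks, and that of 14 amacrine, horizontal and ganglion cell genes was 8.30 to 8.39 and 7.09 to 8.13. Their part in these changes was not tested.

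In ko over the same interval 3 genes rose and none fell, beside 7.38% of all genes called: Ppargc1a, Cox6c and the citric acid cycle gene Idh3a. The median was 0.25 and 42 of 55 lay above 0, with 10 genes at an unadjusted p under 0.05. The call of Cox6c, a small subunit of complex IV (0.66, limma adjusted p = 0.045), held in 19 of the 39 fits that left out 1 array and in 4 of 10 other alternatives. It was lost with quantile normalization, the mean of all probe sets, the second probe set, only the groups of the contrast, the replicate block, and without the 6 arrays. In the fit with the array SD 10 rose and 1 fell (17% of all genes), the one that fell being Tfam. Without the 6 arrays 2 rose and 3 fell (22.5%), and the median was -0.18, so the sign of the ko median depended on these arrays.

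The change from E16 to 4 weeks differed between the genotypes in 3 genes by the interaction term, beside 3.07% of all genes: Cox5b and Cox7a2 changed upward in ko relative to wt, by 1.02 and 0.63 (log2), and Ppargc1b downward, by -2.21. Of the 55, 49 had an interaction above 0, with a median of 0.60 against -0.05 over all genes. In the fit with the array SD 8 were called, 6 above and 2 below 0 (8.03% of all genes), with a median of 0.38. Without the 6 arrays 2 were called, both below 0 (5.28%), with a median of 0.18 and 34 of 55 above 0, so the calls of Cox5b and Cox7a2 were lost there. By complex, the interaction lay above 0 for 21 of 22 complex I subunits, 6 of 7 of complex III, 9 of 9 of complex IV and 5 of 5 of ATP synthase, and for 2 of 4 of complex II and 2 of 4 regulators, beside 42% of all genes.

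At single stages the genotypes differed in few of the genes as deposited. At E16, 1 gene was higher and 2 were lower in ko (1.13% of all genes called), with 46 of 55 below 0 and a median difference of -0.46. The count was 1 and 3 with the array SD as a covariate (3.72%) and 1 and 3 without the 6 arrays (3.71%), where the median was -0.12 and -0.04. The mean of the amacrine, horizontal and ganglion cell genes at E16 was 8.30 to 8.39 in wt and 7.16 to 7.47 in ko, which do not overlap. It was also lower in ko without overlap at P2, at 7.29 to 8.19 in wt and 7.18 to 7.28 in ko. The same held at P10, at 7.56 to 7.93 in wt and 6.95 to 7.09 in ko, while the genotypes overlapped at 4 weeks. Its part in the differences at any stage was not tested. At P2 none of the 55 was called (0.346% of all genes by limma), with 2 at an unadjusted p under 0.05, and none with the array SD (1.86%) or without the 6 arrays (1.13%). The widest difference in ko at P2 above 0 was that of Cox4i1, the subunit of complex IV that carries a site of regulation by ATP, at 0.58 with a 95% interval from -0.15 to 1.32.

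P6 was the stage at which most members were called with the array SD in the model. As deposited, 2 of 55 were higher in ko and none lower (1.54% of all genes), with a median of 0.21. With the array SD as a covariate 19 were higher and 3 lower, or 40% of the set, beside 9.02% of all genes, of which 844 were higher and 797 lower. Without the 6 arrays 12 were higher and 2 lower (4.16% of all genes), with a median of 0.45 and 49 of 55 above 0. Leaving these out removes ko P6 replicate 4, where the members lay 0.43 below their own means, and keeps wt P6 replicate 4, where they lay 0.56 below, so the removal itself widens the difference at P6. The 19 were 8 subunits of complex I, 2 of complex III, 6 of complex IV and 2 of ATP synthase, with Mdh2; the 3 lower were Ppargc1b, Cox7c and Ndufs1. At the same stage the mean of the amacrine, horizontal and ganglion cell genes was 7.76 to 8.18 in wt and 7.02 to 7.17 in ko, and that of the progenitor and cell cycle genes was 7.93 to 8.87 in wt and 7.47 to 7.76 in ko. Their part in the result was not tested.

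At P10, 1 gene was higher and 1 lower in ko (2.81% of all genes), with a median of 0.11. The covariate gave 3 higher and 4 lower (9.64%), and without the 6 arrays, 2 of which are wt P10 arrays, 1 was higher and 3 were lower (6.58%). The median turned to -0.11 with the covariate, -0.05 with quantile normalization and -0.17 without the 6 arrays, so its sign at P10 depended on the setting. At 4 weeks 2 genes were higher and 1 lower as deposited (4.73%), 8 and 1 with the array SD (11.1%), and 3 and 1 without the 6 arrays (7.63%). The median difference at 4 weeks was 0.17, against 0.03 over all genes. The arrays of the genotypes did not overlap for 13 of the 55 genes at E16 (8.39% of all genes), none at P2 (5.63%), 5 at P6 (8.15%), 5 at P10 (7.45%) and 8 at 4 weeks (10%). At 4 weeks ko was higher for Ndufs4, Cox7a2, Cox8a, Atp5j and Idh3a and lower for Sdha, Ppargc1b and Nrf1.

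**Figure D2:**
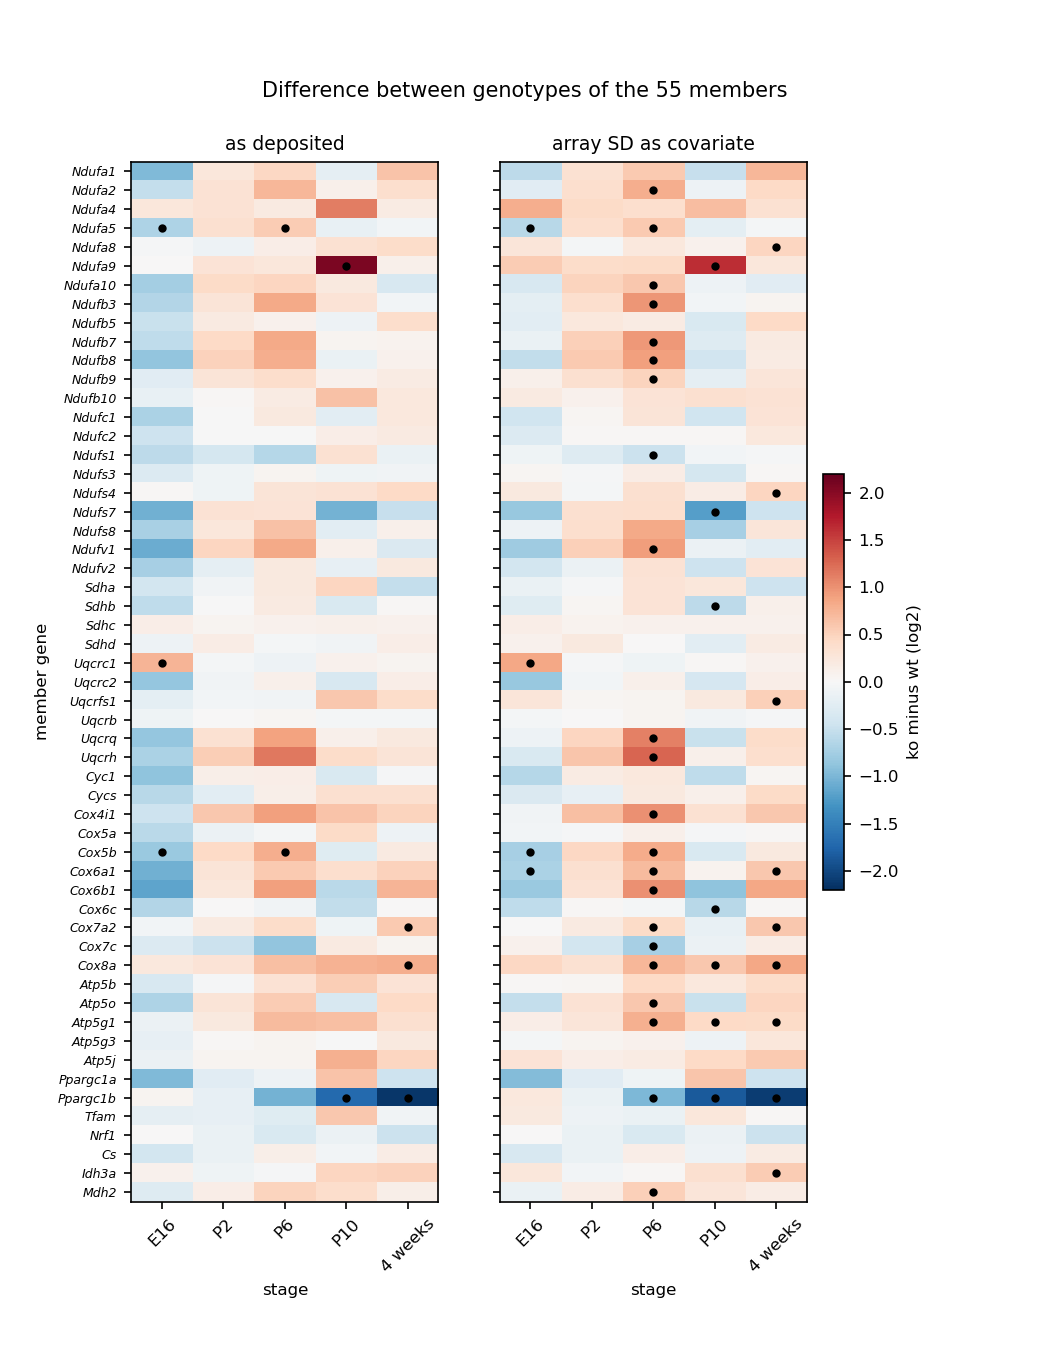
Difference of ko minus wt (log2, colour) for the 55 genes (rows, by complex) at the 5 stages (columns), as deposited on the left and with the array SD as a covariate on the right; a black dot marks a Benjamini-Hochberg adjusted p under 0.05 (limma). At P6 the dots number 2 on the left and 22 on the right, and Ppargc1b is marked at P10 and at 4 weeks in both.

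From one stage to the next, few steps gave calls as deposited. In wt none of the 55 was called from E16 to P2 (3.97% of all genes, 14 of the 55 at an unadjusted p under 0.05), from P2 to P6 (0.148%, 1 gene) or from P6 to P10 (0.352%, 4 genes). From P10 to 4 weeks Sdha and Ppargc1a rose and Cox7a2 and Atp5o fell (5.34%). With the array SD as a covariate the wt steps gave no call from E16 to P2 (1.28%, with 5 genes at an unadjusted p under 0.05) or from P2 to P6 (0.671%, with 7), 2 that rose and 1 that fell from P6 to P10 (2.61%), and 2 that rose and 14 that fell from P10 to 4 weeks (9.63%). Without the 6 arrays no gene rose and 21 fell from E16 to P2 in wt, beside 44.2% of all genes. The median of that step was -0.52 there and as deposited but 0.07 with the covariate. The array SD was 1.66 to 1.80 on the wt arrays at E16 and 1.48 to 1.59 at P2. These ranges do not overlap, so stage and array SD cannot be told apart in this step. The 14 that fell from P10 to 4 weeks with the covariate held 5 of the 9 complex IV subunits, Cox5b, Cox6a1, Cox6b1, Cox7a2 and Cox8a, and cytochrome c.

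In ko 3 genes rose and 1 fell from E16 to P2 (1% of all genes), none was called from P2 to P6 (0.66%, with 6 genes at an unadjusted p under 0.05), 2 fell from P6 to P10 (1.37%) and none was called from P10 to 4 weeks (1.04%, with 2). With the array SD as a covariate 12 rose and 1 fell from E16 to P2 (4.32%), 1 rose from P2 to P6 (3.86%), 4 rose and 20 fell from P6 to P10 (9.77%), and 2 fell from P10 to 4 weeks (5.12%). Without the 6 arrays 8 rose and 12 fell from E16 to P2 in ko (37.3%), with a median of -0.15 against 0.39 with the covariate, so the direction of most members in that step depended on the setting. In the fit with the array SD the fall from P6 to P10 in ko was led by Ndufs7 (-1.76), Cox6b1 (-1.47) and Ndufs8 (-1.45). Ndufs7 is the complex I subunit with the last iron-sulphur cluster before ubiquinone, and Ndufs8 is another iron-sulphur subunit of complex I. As deposited the 2 that fell were Ndufs7 (-1.65) and Uqcrc2. Ndufs7 lay at 11.73, 11.56, 11.64 and 10.20 on the ko arrays at P6 and at 9.41, 9.91, 9.46 and 9.74 at P10. All P10 arrays lay below all P6 arrays, the lowest of which was replicate 4. In the same step Idh3a, Ppargc1a, Ndufa4 and Ndufa9 rose with the array SD as a covariate.

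Ppargc1b, the coactivator PGC-1beta, was the gene of the set with the widest difference between genotypes at 4 weeks. In wt it lay at 5.64, 5.95, 5.77 and 6.18 at E16, at 6.12, 6.08, 6.21 and 6.02 at P2 and at 6.81, 6.87, 7.50 and 6.80 at P6. It lay at 6.97, 6.83, 9.24 and 8.71 at P10 and at 8.67, 7.66, 7.98 and 8.88 at 4 weeks, so every wt array at 4 weeks was above every wt array at E16, P2 and P6. The rise from E16 to 4 weeks was 2.41 ± 0.32 (SE, log2), or 5.33-fold (limma adjusted p = 6.19e-07).

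In ko the same probe set lay between 5.70 and 6.18 at E16 and lay at 6.33, 6.12, 6.21 and 6.24 at P10 and at 6.12, 6.08, 6.38 and 6.06 at 4 weeks. All 4 ko arrays lay below all 4 wt arrays at both stages. The difference was -1.72 ± 0.32 at P10 (3.28-fold, limma adjusted p = 0.00088) and -2.14 ± 0.32 at 4 weeks (4.41-fold, adjusted p = 1.23e-05). It was -1.85 at P10 and -2.10 at 4 weeks with the array SD as a covariate, and -2.75 and -2.11 without the 6 arrays. The authors' detection calls, 1 for each genotype and stage, gave this probe set as absent in ko at P2. The columns of calls marked with an abbreviation for the adult were not matched to the 4-week groups here, so no fold at 4 weeks was turned into a bound.

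Ppargc1a, the coactivator PGC-1alpha, climbed in both genotypes. Its wt arrays lay at 8.14, 8.56, 8.37 and 8.59 at E16 and at 10.13, 10.37, 10.68 and 10.44 at 4 weeks. The ko arrays lay at 6.54, 7.55 and 8.23 at E16, where the detection call was absent, and at 9.46, 9.66, 10.30 and 10.34 at 4 weeks. Within each genotype the E16 and 4-week arrays did not overlap, and the rise was 1.99 in wt. In ko the change also passed the test (limma adjusted p = 2.27e-07), and no size is given for it because it starts from a group called absent. Between genotypes no difference was called: the limma adjusted p was 0.0999 at E16, and at 4 weeks the difference was -0.46 (95% interval -1.02 to 0.09). The 4 other probe sets of Ppargc1a rose from E16 to 4 weeks in wt by 1.07 to 2.34.

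Tfam, which packages and transcribes mitochondrial DNA, fell in wt while the coactivators rose. It lay at 9.91, 9.74, 9.84 and 9.79 at E16 and at 8.91, 8.50, 8.88 and 8.89 at 4 weeks, with no overlap, a fall of 1.03 (fitted change -1.03 ± 0.34, limma adjusted p = 0.0292). The call held in 34 of the 39 fits that left out 1 array (limma adjusted p up to 0.0926) and in 10 of 10 other alternatives. In ko Tfam lay at 10.34, 10.36 and 8.16 at E16 and at 8.10, 9.30, 8.93 and 8.53 at 4 weeks. The ko groups overlapped because of ko E16 replicate 3, and the change of -0.91 was not called (adjusted p = 0.159); it was -0.97 with the array SD (adjusted p = 3.69e-06) and -1.83 without the 6 arrays (adjusted p = 4.73e-07). Nrf1, the gene of the transcription factor NRF1, lay between 8.18 and 9.33 on all wt arrays and was called absent by the authors in all 10 columns of calls. Its change in wt from E16 to 4 weeks passed the test (limma adjusted p = 0.0466) as deposited, with no size given for a signal called absent. The call held in 15 of the 39 fits that left out 1 array and was lost with quantile normalization, the mean of all probe sets and the second probe set.

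**Figure D3:**
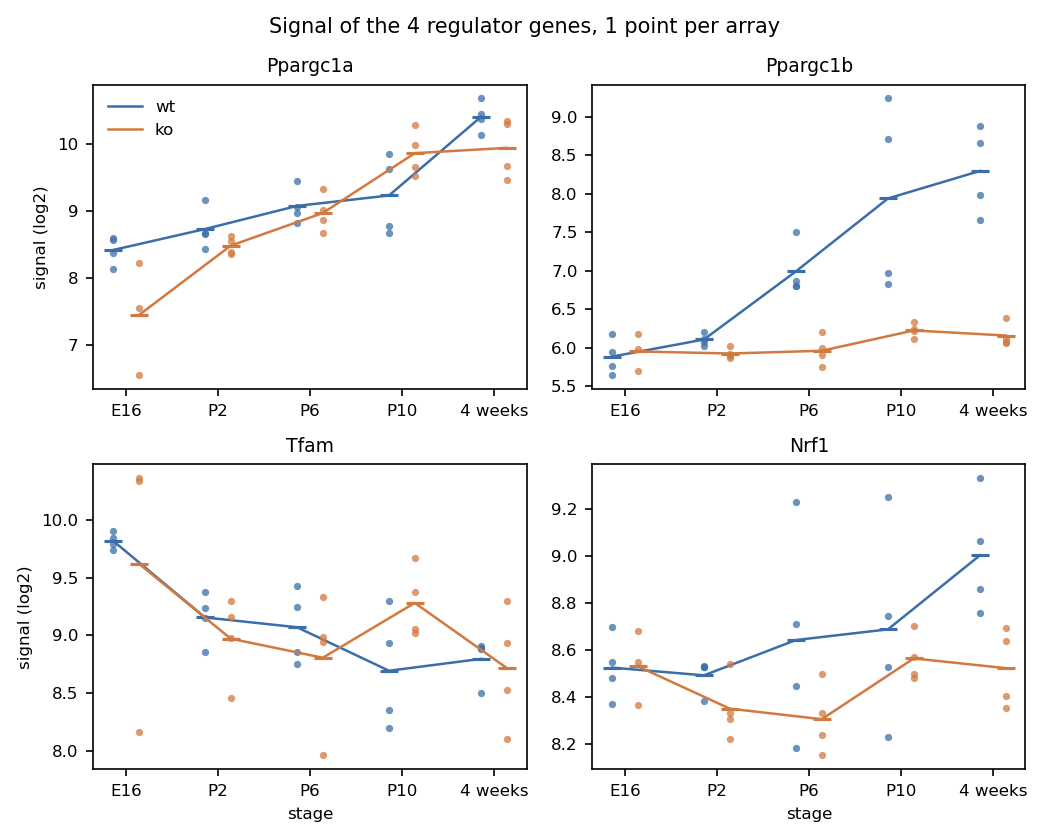
Log2 signal of Ppargc1a, Ppargc1b, Tfam and Nrf1 (panels) at the 5 stages (x axis) on every array (points, wt blue, ko orange), with group means joined by lines. Ppargc1b separates the genotypes at P10 and 4 weeks, where the ko arrays stay between 6.06 and 6.38, while Ppargc1a climbs in both.

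Complex I, which takes electrons from NADH, gave 6 of 22 subunits that fell and none that rose in wt from E16 to 4 weeks, with a median of -0.48: Ndufa1, Ndufa2, Ndufb5, Ndufc1, Ndufc2 and Ndufs4. This was 27.3% of the subunits, beside 18.3% of all genes called. Ndufa1, a small subunit of the membrane arm, lay at 9.88, 9.23, 9.66 and 9.64 at E16 and at 9.14, 7.53, 7.73 and 8.08 at 4 weeks. The 4-week arrays all lay below the E16 arrays, with replicate 1 closest, and the change was -1.48 ± 0.38 (limma adjusted p = 0.00479). Ndufs4, an accessory subunit of the matrix arm, changed by -0.68 (adjusted p = 0.0198), but its second brightest probe set, with a mean of 6.52 against 9.42, gave 0.16.

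Ndufa5, an accessory subunit of the matrix arm, was called at both E16 and P6, with opposite signs. Of complex I, 19 of 22 lay below 0 at E16 and 20 of 22 above 0 at P6. Of all genes, 58.3% lay above 0 at E16 and 46% at P6. For complex I as a whole, though not for the Ndufa5 call, the E16 side rested on ko replicate 3, where the mean deviation of complex I was -1.02. On ko replicates 1 and 2 it was 0.32 and 0.27, within the wt range of 0.10 to 0.52. At P6 the genotypes overlapped in this mean. At E16 Ndufa5 lay at 11.29, 11.17, 11.46 and 11.41 in wt and at 10.50, 10.88 and 10.56 in ko, all lower. At P6 this gene lay at 11.04, 11.13, 11.23 and 10.74 in wt and at 11.75, 11.65, 11.65 and 11.30 in ko, all higher. The difference was -0.69 ± 0.15 at E16 (limma adjusted p = 0.017) and 0.55 ± 0.14 at P6 (adjusted p = 0.0335), and at 4 weeks the genotypes overlapped. A second probe set gave 0.63 at P6. The P6 call was lost with that probe set, with quantile normalization, with only the groups of the contrast, and without any 1 of 6 of the 8 P6 arrays. The E16 call was lost in the same 3 alternatives, with the mean of all probe sets, and without any 1 of ko replicate 1 and wt replicates 3 and 4 at E16.

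Ndufa9, an accessory subunit at the joint of the matrix and membrane arms, differed most at P10. It lay at 8.51, 8.24, 10.42 and 8.57 in wt and at 10.80, 11.33, 10.93 and 10.97 in ko. Every ko array was above every wt array, and wt replicate 3 stood above the other wt arrays. The difference was 2.07 ± 0.48, or 4.2-fold (limma adjusted p = 0.0104), and it was 1.62 with the array SD as a covariate and 1.51 without the 6 arrays; without wt P10 replicate 2 alone the adjusted p was 0.0573. At 4 weeks the difference was 0.11. Ndufs1, the large iron-sulphur subunit, moved the other way at P6, at 9.32, 9.55, 9.71 and 8.83 in wt and 9.27, 8.78, 8.94 and 7.94 in ko. Those groups overlapped, and the difference of -0.62 was called only with the array SD as a covariate (-0.48, limma adjusted p = 0.036).

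At P6 8 complex I subunits were higher in ko in the fit with the array SD: Ndufa2, Ndufa5, Ndufa10, Ndufb3, Ndufb7, Ndufb8, Ndufb9 and Ndufv1. Ndufv1, which binds NADH, differed by 0.92 (limma adjusted p = 0.0332), against 0.83 and an adjusted p of 0.357 as deposited. Ndufb8 of the membrane arm differed by 0.90 (adjusted p = 0.000853), against 0.80 and 0.256. The sizes were thus close in both fits, and the intervals were narrower with the covariate, from 0.55 to 1.25 against 0.18 to 1.42 for Ndufb8. At 4 weeks Ndufa8 and Ndufs4 were called with the covariate, Ndufa8 at 0.48 (0.40 as deposited).

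Complex II, succinate dehydrogenase, is also an enzyme of the citric acid cycle. In wt from E16 to 4 weeks 1 of its 4 genes rose and 1 fell, beside 18.3% of all genes called. Sdha, its catalytic flavoprotein, lay at 10.42, 10.05, 10.44 and 10.40 at E16 and at 11.48, 11.11, 11.25 and 10.89 at 4 weeks. The stages did not overlap, and the rise was 0.86 ± 0.28 (limma adjusted p = 0.0308). The Sdha call held in 33 of the 39 fits that left out 1 array (limma adjusted p up to 0.0928). It was lost with the second probe set (adjusted p = 0.364). Sdhb, its iron-sulphur subunit, lay at 9.84, 8.83, 9.56 and 9.28 at E16 and at 9.36, 8.37, 8.21 and 8.39 at 4 weeks. These groups overlapped through E16 replicate 2 and 4-week replicate 1, and the change was -0.79 (adjusted p = 0.0486). The Sdhb call held in 12 of the 39 fits that left out 1 array and was lost with the second probe set and with only the groups of the contrast. In ko Sdha lay at 10.77, 10.43, 10.71 and 10.71 at 4 weeks, below every wt array, but the difference of -0.53 (95% interval -1.11 to 0.05) did not pass the test. The Sdha probe set can match more than 1 transcript, and another probe set of the gene gave a rise of 0.45 in wt.

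Complex III, which passes electrons from ubiquinol to cytochrome c, had no call in wt over time as deposited, with a median of -0.56 over its 7 genes and 2 at an unadjusted p under 0.05. Uqcrc1, a core subunit, lay at 8.28, 7.95, 8.46 and 8.20 in wt and at 9.44, 8.81 and 8.69 in ko at E16, all ko arrays higher (limma adjusted p = 0.00936). The authors called this probe set absent in every column of calls, so no size is given, and without ko E16 replicate 1 the adjusted p was 0.103. Uqcrh, the acidic hinge protein, and Uqcrq, a small ubiquinone-binding subunit, were higher in ko at P6 with the array SD as a covariate, by 1.27 and 1.11 (limma adjusted p = 0.0228 and 0.0142). Uqcrh lay at 8.98, 9.87, 11.32 and 9.08 in wt and at 11.44, 11.01, 11.19 and 10.27 in ko at P6. Its groups overlapped because wt replicate 3 was high. Uqcrq lay at 6.16, 7.63, 8.31 and 5.75 in wt and at 9.14, 7.74, 8.21 and 6.30 in ko, which overlapped more widely, and both probe sets can match more than 1 transcript.

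Cycs, cytochrome c, the carrier between complexes III and IV, passed no genotype test. At 4 weeks it lay at 10.59, 9.90, 10.16 and 9.76 in wt and at 10.18, 10.65, 10.52 and 10.47 in ko. The genotypes overlapped, with a difference of 0.35 as deposited and 0.43 with the array SD as a covariate.

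Complex IV, cytochrome c oxidase, reduces oxygen to water. In wt 3 of its 9 measured genes fell from E16 to 4 weeks, or 33.3% beside 18.3% of all genes called, with a median of -0.61. Cox7a2, the widely expressed isoform of subunit VIIa, lay at 12.77, 12.68, 12.84 and 12.84 at E16 and at 12.20, 11.91, 11.79 and 11.93 at 4 weeks in wt. In ko it lay at 12.80, 12.85 and 12.51 at E16 and at 12.59, 12.61, 12.48 and 12.42 at 4 weeks. All wt 4-week arrays were below every other array of these groups; the change in wt was -0.83 ± 0.11 (limma adjusted p = 8.27e-07), and the difference at 4 weeks was 0.57 ± 0.11, or 1.48-fold (adjusted p = 0.000717). It was 0.59 with the array SD as a covariate and 0.54 without the 6 arrays, and a second probe set gave 0.61, which was not called.

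Cox8a, subunit VIII, lay at 8.78, 8.42, 8.24 and 8.57 in wt and at 9.37, 9.06, 9.54 and 9.23 in ko at 4 weeks. The ko arrays were all higher, by 0.80 ± 0.22 or 1.74-fold (limma adjusted p = 0.0258). At P10 the ko arrays lay at 9.34, 10.10, 9.30 and 9.50 and the wt arrays at 8.66, 8.47, 9.50 and 8.54. They overlapped through wt replicate 3, and the difference was 0.77 as deposited (adjusted p = 0.0512) and 0.59 with the array SD as a covariate (adjusted p = 0.00714). The authors called Cox8a absent in wt at P2 and P10, its probe set can match more than 1 transcript, and the 4-week call was lost when any 1 of ko replicates 1 and 3 and wt replicates 2 and 3 at 4 weeks was left out.

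Cox5b, a subunit of the matrix side, moved as Ndufa5 did. It lay at 12.18, 11.74, 12.23 and 12.16 in wt and 11.37, 11.35 and 11.03 in ko at E16, all ko arrays lower. At P6 it lay at 11.42, 11.61, 11.82 and 11.08 in wt and 12.56, 12.28, 12.31 and 11.96 in ko, all ko arrays higher. The differences were -0.82 ± 0.21 (limma adjusted p = 0.0447) and 0.79 ± 0.19 (adjusted p = 0.0278). The E16 call was lost in 20 of the 39 fits that left out 1 array and in 5 of 10 other alternatives, among them the one without the 6 arrays, and the P6 call in 5 of the 39. Of its other probe sets, 3 gave 0.76 to 0.99 at P6 and the 2 dimmest gave 0.03 and 0.04.

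Cox6b1, which lies where the monomers of the complex IV dimer meet, had the widest fall of the set in wt. It lay at 11.54, 10.83, 11.49 and 11.41 at E16 and at 10.70, 9.27, 9.18 and 9.64 at 4 weeks, with no overlap (-1.62 ± 0.40, a 3.07-fold fall, limma adjusted p = 0.00274). In ko it lay at 10.51, 10.53 and 9.42 at E16 and 10.39, 10.92, 10.35 and 10.15 at 4 weeks, which overlapped. Cox6a1, the widely expressed isoform of subunit VIa, lay at 11.30, 11.20, 11.16 and 11.14 in wt and at 10.69, 10.73 and 8.98 in ko at E16. All ko arrays were lower, and the difference was called only with the array SD as a covariate (-0.70, limma adjusted p = 0.017, against -1.06 and 0.133 as deposited). At 4 weeks it was 0.60 with the covariate (adjusted p = 0.00738). At P6 Cox4i1 differed by 1.01 and Cox6b1 by 1.00 with the covariate, while Cox7c, another small subunit, was lower by -0.74.

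**Figure D4:**
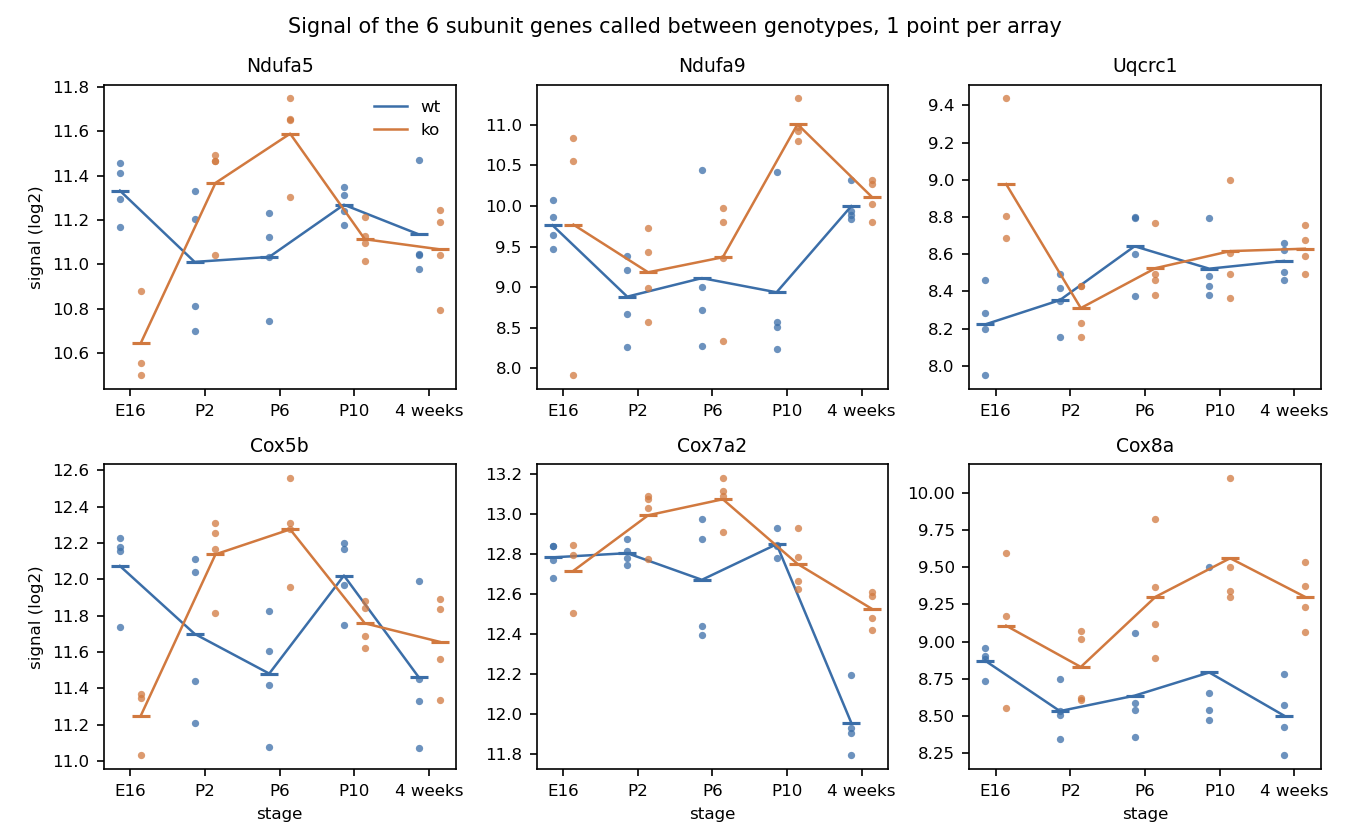
Log2 signal of Ndufa5, Ndufa9, Uqcrc1, Cox5b, Cox7a2 and Cox8a (panels) at the 5 stages (x axis) on every array (points, wt blue, ko orange), with group means joined by lines. Ndufa5 and Cox5b are lower in ko at E16 and higher at P6, and Cox7a2 is lowest on the wt arrays at 4 weeks, at 11.79 to 12.20.

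ATP synthase gave 1 gene of 5 that fell in wt, Atp5o, the OSCP subunit that ties the catalytic head to the peripheral stalk; 20% of 5 is close to the 18.3% of all genes called. It lay at 11.66, 11.22, 11.57 and 11.57 at E16 and at 11.00, 10.07, 9.995 and 10.48 at 4 weeks, with no overlap and a change of -1.12 ± 0.22 (limma adjusted p = 0.000305). A second probe set, which does not carry the mark of cross-matching that the first does, gave -0.96 and was not called. Atp5b, the catalytic beta subunit, lay at 10.40, 10.10, 10.35 and 10.27 at E16 and at 10.66, 10.26, 10.32 and 10.90 at 4 weeks in wt, which overlapped. The rise of Atp5b in ko, 0.91 (95% interval 0.10 to 1.73), was called only with the array SD as a covariate (0.85, limma adjusted p = 0.0172), and it was 0.47 (-0.39 to 1.32) without the 6 arrays.

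Atp5g1 and Atp5g3 encode the same mature c subunit of the membrane rotor. Atp5g1 lay at 8.81, 9.30, 9.78 and 8.77 in wt and at 10.37, 9.86, 10.11 and 9.14 in ko at P6. The groups overlapped because ko replicate 4 lay within the wt range, and the difference of 0.70 was called with the array SD as a covariate (0.79, limma adjusted p = 4.38e-05) and without the 6 arrays (0.94, adjusted p = 0.00367). Atp5g3 lay at 11.45, 11.19, 11.22 and 11.46 in wt and at 11.68, 11.41, 11.52 and 11.57 in ko at 4 weeks, a difference of 0.22 (95% interval -0.08 to 0.51) that was not called. Atp5g2, which encodes the same subunit and belongs to the further genes below, lay at 8.89 ± 1.00 (SD, n = 4) in wt and 9.92 ± 0.57 (n = 4) in ko at P6 and was higher in ko with the covariate. Over the 5 genes, the mean deviation from each gene's own mean was 0.22 ± 0.02 (SD, n = 4) in ko and -0.14 ± 0.26 (n = 4) in wt at 4 weeks, and no single gene of the 5 was called there as deposited.

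Among the citric acid cycle genes, Idh3a, the catalytic subunit of the NAD-dependent isocitrate dehydrogenase, rose in ko from 8.97, 8.98 and 8.61 at E16 to 9.34, 9.42, 9.94 and 9.99 at 4 weeks. The stages did not overlap, and the rise was 0.82 ± 0.19 (limma adjusted p = 0.00387). At 4 weeks the wt arrays lay at 9.30, 8.95, 9.14 and 9.26, all below the ko arrays, and the difference of 0.51 was called with the array SD as a covariate (0.55, adjusted p = 0.00268) and without the 6 arrays (0.60, adjusted p = 0.0233) but not as deposited (adjusted p = 0.105). Mdh2, mitochondrial malate dehydrogenase, was higher in ko at P6 by 0.53 with the covariate (adjusted p = 0.00311). At that stage it lay at 11.20, 11.36, 11.37 and 11.00 in wt and at 11.90, 11.76, 11.82 and 11.43 in ko, with every ko array above every wt array. Cs, citrate synthase, passed no genotype test.

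**Figure D5:**
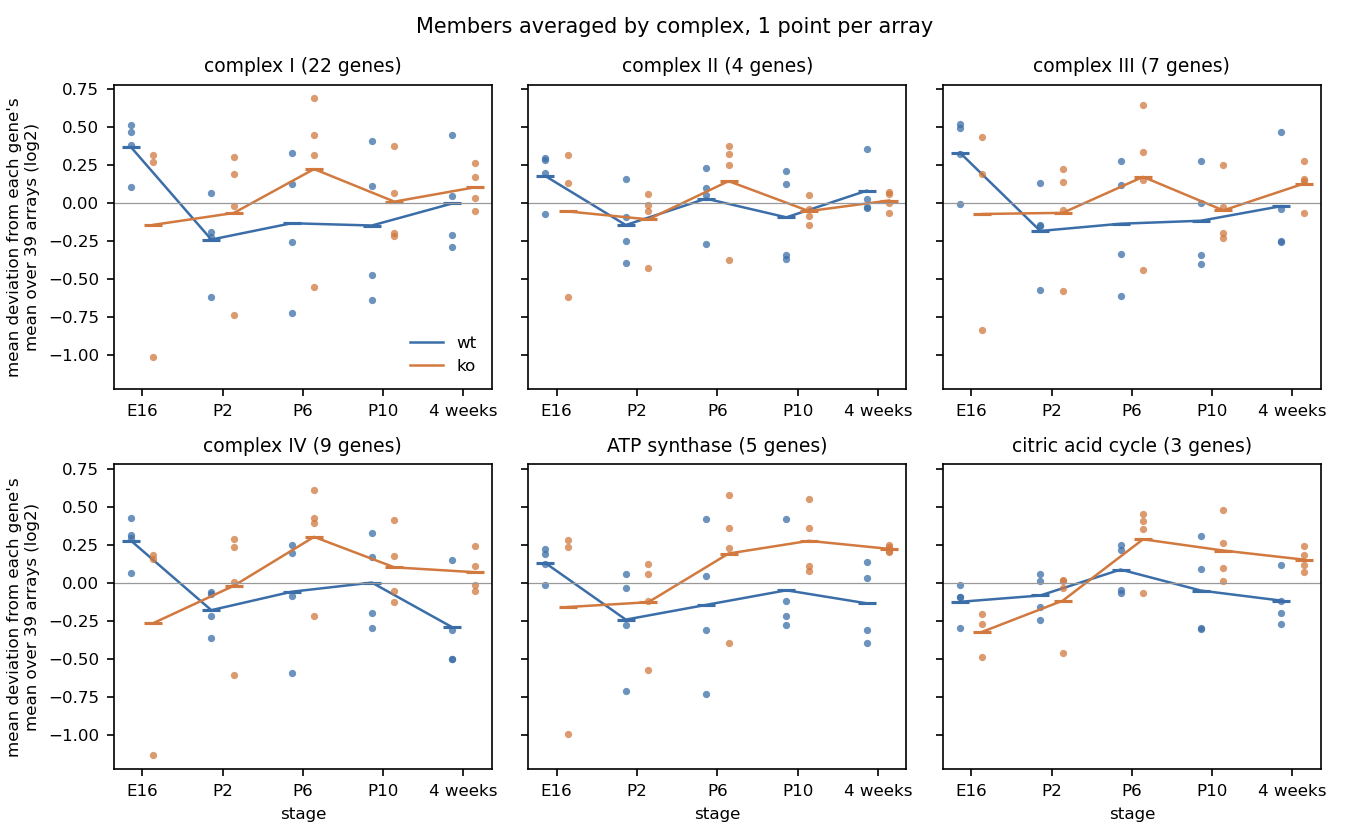
Mean deviation of the genes of each complex from each gene's mean over all 39 arrays (log2, y axis) at the 5 stages (x axis), with 1 point per array (wt blue, ko orange) and lines through group means; panels hold complex I (22 genes), II (4), III (7), IV (9), ATP synthase (5) and the citric acid cycle (3). The wt and ko arrays overlap in most groups, and ATP synthase at 4 weeks shows the ko arrays close together at a mean of 0.22.

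Other nuclear genes of the same machinery were listed with earlier results of these data known. In the fit with the array SD 9 of 20 further subunits of the respiratory chain and 7 of 10 further subunits of ATP synthase were higher in ko at P6 and none was lower, or 45% and 70% beside 9.02% of all genes. As deposited only Ndufb11, a complex I subunit, was called (0.65, limma adjusted p = 0.0366). Shares of the other lists were nearer that of all genes: of 34 assembly factors 5 were higher with the covariate (14.7%), of 30 proteins of the mitochondrial ribosome 3 (10%), and of 20 import proteins 2 were higher and 1 lower (15%). Uqcc2, an assembly factor of complex III, was higher in ko at P6 as deposited too (0.87 ± 0.10, adjusted p = 3.89e-07). In wt from E16 to 4 weeks, 3 of the 20 further chain subunits fell and none rose, as did 2 of the 10 further ATP synthase genes, shares of 15% and 20% that are near the 18.3% of all genes. One of these was Atpif1, the inhibitor that blocks ATP hydrolysis by the synthase, at 11.50 ± 0.28 (SD, n = 4) at E16 and 9.25 ± 0.75 (n = 4) at 4 weeks.

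Of 16 genes of mitochondrial DNA and its regulation, 3 rose in wt (18.8%, near the 18.3% of all genes), and 2 of these were also lower in ko at 4 weeks. Polg2, the accessory subunit of the mitochondrial DNA polymerase, reached 10.29 ± 0.11 (SD, n = 4) in wt and 7.13 ± 0.36 (n = 4) in ko at 4 weeks, with no overlap and a difference of -3.16 ± 0.40 (limma adjusted p = 5.69e-07). Esrrb, an orphan nuclear receptor of the ERR family, reached 7.92 ± 0.32 in wt and 6.47 ± 0.13 in ko, a difference of -1.46 ± 0.16 (adjusted p = 6.35e-08). Ckmt1, the mitochondrial creatine kinase, rose in both genotypes, by 3.44 in wt (adjusted p = 5.62e-08) to 10.49 ± 0.43 and by 3.67 in ko (adjusted p = 2.17e-07) to 10.17 ± 0.33. Ckb, the cytosolic brain creatine kinase, was higher in ko at 4 weeks by 1.46 ± 0.40 (adjusted p = 0.0258), at 10.55 ± 0.33 against 9.09 ± 0.86.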

How the data were processed

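Expression was measured on 39 Affymetrix mouse arrays. The authors deposited normalized log2 signals, made with RMA per the submitters' processing notes (version not given in the sources used here). Detection calls came as letters in 10 columns, each for 1 genotype and stage. The columns marked for the adult were not matched to a group. Microarrays carry no read depth, and the number of arrays limits precision. Of 45101 probe sets, 64 controls were left out, 34945 had 1 gene symbol, 932 had several and 9160 had none. The probe set with the highest mean stood for each of 18193 genes, and no further filter or normalization was applied. A linear model with the 10 groups was fitted over all genes in limma 3.58.1 (R 4.3.3; lmFit, eBayes; 29 residual degrees of freedom and a prior of 2.81), for 16 contrasts, with Benjamini-Hochberg adjustment over all genes within each contrast. The same model with the SD of each array as a covariate was run beside it. Intervals are 95% intervals of the difference. The code was tested on simulated data.

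The members and the other lists were chosen with earlier results of these data known. The genes given with the value of every array were the regulators and cytochrome c; in each complex the gene with the largest change from E16 to 4 weeks in wt and the one in ko; the members called between genotypes at a stage; and the genes of ATP synthase subunit c. Members that moved against most of their complex and were called are named too, and outside the set up to 3 called genes of a list. Names beyond these were chosen after their values were seen. Alternatives were quantile normalization, a filter on present calls, the mean of all probe sets, the second brightest probe set, only the groups of a contrast, array weights, a replicate block, leaving out 6 arrays that stand apart, and leaving out each array. Same-numbered arrays deviated together in every pair (r over 0.1) only for ko at E16 with P2 (0.743, 0.579 and 0.299) and ko at P2 with P6 (0.789, 0.308, 0.127 and 0.841), so the replicate block was not used otherwise than as an alternative.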

Additional observations from a re-analysis of the deposited data

Results flagged for a closer look

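Dixon's test for 1 array far from the rest of its group was run on 270 groups of values of the named genes and complexes, and 17 passed, or 6.3%, where chance gives about 1 in 20. The value of ko P2 replicate 4, an array of low SD, stood below its group for Sdha (9.21, others 9.92 to 10.07), Cox6b1 (9.78, others from 11.05), Atp5o (10.99, others from 11.62), Ndufa5 (11.04, others from 11.47) and the mean deviation of the citric acid cycle genes (-0.47, others from -0.04). In the same way ko P6 replicate 4 stood below its group for Cycs (9.92, others from 11.05), Cox6b1 (10.41, others from 11.48) and the deviation of complex II (-0.38, others from 0.25). On wt E16 replicate 2 the low values were Sdha (10.05, others from 10.40), Cox5b (11.74, others from 12.16) and Atp5g1 (9.38, others from 9.64). On wt 4 weeks replicate 1 Ndufa5 (11.47, others up to 11.05) and the deviation of complex II (0.35, others up to 0.03) were high, and on replicate 2 of that group Tfam was low (8.50, others from 8.88). Ppargc1b was high on wt P6 replicate 3 (7.50, others up to 6.87), Ndufa9 was high on wt P10 replicate 3 (10.42, others up to 8.57), and Nrf1 was low on wt P2 replicate 4 (8.38, others at 8.53).

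The change from E16 to 4 weeks differed between ko and wt by the interaction term for Cox5b (1.02), Cox7a2 (0.63) and Ppargc1b (-2.21).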

How the results depend on the processing

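Both counts and directions depended on the setting. The median difference at P10 went from 0.11 to -0.11 with the array SD as a covariate and to -0.17 without the 6 arrays; in ko over time it went from 0.25 to -0.18 without them, where 3 calls that rose became 2 that rose and 3 that fell. With the array SD as a covariate the count went from 2 to 22 at P6, from 2 to 7 at P10, from 3 to 9 at 4 weeks, from 3 to 11 for ko over time, from 3 to 8 for the interaction and from 10 to 59 over the steps between neighbouring stages in each genotype. Quantile normalization gave 12 at P6 (3.79% of all genes), 7 at P10 (5.19%), 8 at 4 weeks (6.48%), 6 for ko over time (9.69%), 7 for the interaction (3.9%) and 38 for the steps. Without the 6 arrays that stand apart it was 14 at P6, 4 at P10, 5 for ko over time and 69 for the steps. Array weights gave 4 at P2, 13 at E16, 16 at 4 weeks, 27 at P10, 29 at P6, 40 for wt over time, 9 for ko over time, 16 for the interaction and 166 for the steps. Fitting only the groups of a contrast gave 0 at E16, 1 at P6, 0 at P10, 1 for ko over time, 1 for the interaction and 32 for the steps. The mean of all probe sets gave 1 at E16, 4 at P10, 1 for the interaction and 5 for the steps, and the second brightest probe set gave 1 at E16, 1 at P6, 1 at 4 weeks, 8 for wt over time, 1 for the interaction and 5 for the steps; under the latter Ndufs4 in wt over time changed sign, to 0.16. The filter on present calls, which leaves 53 of the genes, gave 6 for the interaction. The share of all genes called moved with the setting too, at P6 from 1.54% as deposited to 3.79% with quantile normalization. Counts given without that share are not read as results about the set. Among them are those with array weights and those with 1 array left out. The cause of these moves was not tested.

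With the replicate block the interaction gave 6 (3.19% of all genes). With the block and the array SD together it gave 12 (8.35%), P6 gave 22 (9%), P10 gave 6 (9.46%), 4 weeks gave 9 (11.4%), ko over time 12 (16.9%) and the steps 60. For the ko step from E16 to P2, 2 rose and 1 fell with the block (0.803% of all genes). Same-numbered arrays deviated together in that step, but no label says that they were paired.

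Leaving out 1 array in turn gave 0 to 4 calls at E16 (0 without ko E16 replicate 1), 0 at P2 throughout, 0 to 5 at P6 (5 without wt P6 replicate 3), 1 to 6 at P10 (6 without wt P10 replicate 3), 2 to 3 at 4 weeks, 6 to 17 for wt over time (6 without wt 4 weeks replicate 2 or wt E16 replicate 1), 2 to 4 for ko over time, 1 to 8 for the interaction (8 without wt 4 weeks replicate 1) and 6 to 32 for the steps (32 without ko E16 replicate 3). The Ppargc1b calls at P10, at 4 weeks, in wt over time and in the interaction held in all 39 of these fits, as did Cox7a2 at 4 weeks. Ppargc1b at P10 was lost when only the groups of the contrast were fitted (adjusted p = 0.255), and Cox7a2 at 4 weeks with the second probe set (adjusted p = 0.142).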

Other observations

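Among the other genes listed, several outside the respiratory chain and ATP synthase differed between genotypes at P10, where 2.81% of all genes were called. Pdha1, the E1 alpha subunit of pyruvate dehydrogenase, was higher in ko by 1.83 (limma adjusted p = 0.0378), and Tomm20, a receptor of the outer membrane import pore, by 0.76 (adjusted p = 0.00461). Ckb was higher by 1.44 (adjusted p = 0.0438), Esrrb was lower by -0.82 (adjusted p = 0.00202) and Polg2 by -1.50 (adjusted p = 0.0289), where the arrays of Polg2 overlapped. Tomm20 also rose from E16 to 4 weeks in both genotypes, by 0.74 in wt (adjusted p = 0.000999) and by 1.32 in ko (adjusted p = 3.04e-06).

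Nfe2l2, the transcription factor of the antioxidant response, was higher in ko at 4 weeks by 0.54 (limma adjusted p = 0.0168) and rose in ko by 0.68 from E16 (adjusted p = 0.00284).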
